A study of Mus musculus with 2 samples.

Results

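Interferon-stimulated genes were examined in single cells of the mouse thymic medulla, profiled by droplet RNA sequencing. The cells are medullary thymic epithelial cells (mTECs), the epithelium that displays tissue antigens to developing T cells. The list holds 38 symbols, 32 classed here as targets of type I interferon and 6 as targets of interferon-gamma (Gbp2, Gbp3, Gbp7, Igtp, Iigp1 and Irgm1). Members were taken by gene symbol alone, and 37 of them matched a row among the 31053 genes of both matrices. Mx2 matched none and is not analysed here, which leaves 31 type I members. The series holds 2 libraries of cells sorted from thymus as EPCAM-positive and Ly51-negative. One is labelled Foxn1-Cre(+) Ikaros+/fl (below, labelled +/fl) and the other Foxn1-Cre(+) Ikarosfl/fl (labelled fl/fl). Both carry the Cre driven by Foxn1, a gene of thymic epithelium, so both groups share the transgene and differ in 1 or 2 floxed copies of Ikzf1, which encodes the transcription factor Ikaros. How many mice were used, and of what age, is not stated. The submitters' names for the matrices assign the genotypes the other way round, so every difference below is between libraries as labelled.

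Type I interferons and interferon-lambda signal through receptors that activate a transcription factor complex that contains Stat2 and Irf9 and binds the interferon-stimulated response element (ISRE). Interferon-gamma signals through another receptor, and its response acts through the gamma-activated site (GAS), while many genes respond to both. In the thymus these genes are known to be active in mTECs without infection.

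The 2 libraries kept 4891 and 7669 cells with 66675011 and 80897462 UMIs (counted RNA molecules) in total, labelled +/fl first here and below. Each genotype has a single library, so no difference could be set against replicates, no test was made, and all 95% intervals cover counting error only. The libraries also differed in sex, since Xist had 1317 UMIs per 1000000 (CPM) against 0.902 CPM, and the Y-linked Ddx3y 0 against 64.5 CPM, so sex and genotype cannot be told apart. Ikzf1 itself had 64.5 against 37.7 CPM over all kept cells. The 3' counts cannot be placed relative to the floxed exons, so this does not check the labels. The libraries shared 25 barcodes. Cells were grouped by clustering made without the members, and clusters were named from marker lists, with names meaning resemblance only. Immature mTECs (Ccl21a, Krt5) numbered 1091 and 1602 cells, Aire-stage mTECs 1077 and 3058, tuft-like cells 1816 and 805, and myeloid and dendritic cells 359 and 296. Ccl21a, the chemokine of immature mTECs, was at 14822 and 14628 CPM in them, and Trpm5, the tuft cell channel, at 625 and 606 CPM in tuft-like cells.

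The regulatory sequence in front of several members shows the elements through which interferons act. In RefSeq windows of GRCm38.p6, from 250 bases before to 50 after the start of each gene, entries were matched for 24 type I and 5 interferon-gamma members. The ISRE core GAAANNGAAA was searched on both strands and may overlap itself. It stood in the windows of 12 of the 24 type I and all 5 of the interferon-gamma members, against 3.99% of all 27025 genes. The GAS letters TTCNNNGAA, which read the same on both strands, stood in 6 of the 24 and 2 of the 5, against 9.55% of all genes. A match is a description of these letters, not a measured binding site. The stretches below come from just before the RefSeq start of 3 type I members and 3 interferon-gamma members that the results turn on. Capitals mark the ISRE core on either strand and the GAS. In the GENCODE M21 annotation Irgm1 starts at 48871683, so its stretch lies inside the gene, and Gbp2 at 142620602, within its stretch.
Isg15, chr4:156200860-156200929, minus strand: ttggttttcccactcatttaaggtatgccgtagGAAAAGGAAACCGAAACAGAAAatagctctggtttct
Ifit1, chr19:34640759-34640828, plus strand: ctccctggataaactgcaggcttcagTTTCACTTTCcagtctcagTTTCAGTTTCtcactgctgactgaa
Rsad2, chr12:26456548-26456617, minus strand: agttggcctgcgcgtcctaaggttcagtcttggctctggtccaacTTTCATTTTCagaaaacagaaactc
Gbp2, chr3:142620559-142620628, plus strand: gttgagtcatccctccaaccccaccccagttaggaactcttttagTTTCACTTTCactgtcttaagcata
Igtp, chr11:58199477-58199546, plus strand: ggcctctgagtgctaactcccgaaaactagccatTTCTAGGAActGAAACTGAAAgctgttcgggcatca
Irgm1, chr11:48871421-48871489, minus strand: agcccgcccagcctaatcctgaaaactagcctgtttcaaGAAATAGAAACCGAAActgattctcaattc
Isg15 carries 3 overlapping cores, Ifit1 and Irgm1 carry 2 each, and Igtp carries 1 core beside a GAS. Both classes of member thus hold ISRE letters in these windows, and the letters do not separate the type I from the interferon-gamma members.

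Immature mTECs had the highest level of most members in both libraries. Summed over the 31 type I members, they had 3664 and 4193 CPM, against 2985 and 3158 CPM in secretory-like mTECs (79 and 376 cells), 1121 and 1437 CPM in Aire-stage mTECs, 1636 and 1299 CPM in tuft-like cells, and 1080 and 1472 CPM in myeloid and dendritic cells. The interferon-gamma members summed to 1255 and 1272 CPM in immature mTECs, 629 and 373.7 CPM in secretory-like mTECs, 209.7 and 226.1 CPM in Aire-stage mTECs, 288.6 and 135.2 CPM in tuft-like cells, and 181.2 and 199.7 CPM in myeloid and dendritic cells. Secretory-like mTECs thus came next, with immature mTECs 1.23-fold (1.19 to 1.27) and 1.33-fold (1.3 to 1.35) above them for the type I sum. Across the 7 classes of at least 50 cells in each library, immature mTECs were highest in both libraries for 18 of 31 type I and 4 of 6 interferon-gamma members. How many of all genes peaked there was not counted. Secretory-like mTECs were highest for 5 type I members, which were Irf7, Oas2, Oas3, Bst2 and Isg20. Myeloid and dendritic cells were highest for Mx1 and Trim30a, tuft-like cells for Samd9l, and enterocyte-hepatocyte-like cells for Oasl1. Some leads over immature mTECs were small in the fl/fl-labelled library. Samd9l had 62.4 CPM in tuft-like cells against 61.24 CPM, and Bst2 438 CPM in secretory-like mTECs against 428.6 CPM. The remaining 6 members, Irf9, Stat2, Rsad2, Usp18, Gbp2 and Igtp, peaked in different classes in the 2 libraries. The secretory-like and enterocyte-hepatocyte-like classes shared markers. In the fl/fl-labelled library the enterocyte-hepatocyte markers summed to 16281 CPM in the former and 15263 CPM in the latter. In the +/fl-labelled library the latter had 14331 CPM of secretory markers and 13379 CPM of its own. The enterocyte-hepatocyte-like class also had 10520 and 9894 CPM of the 7 markers of microfold cells, against 368 and 787.7 CPM in secretory-like mTECs. Its name therefore does not cover all that it resembles.

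**Figure D1:**
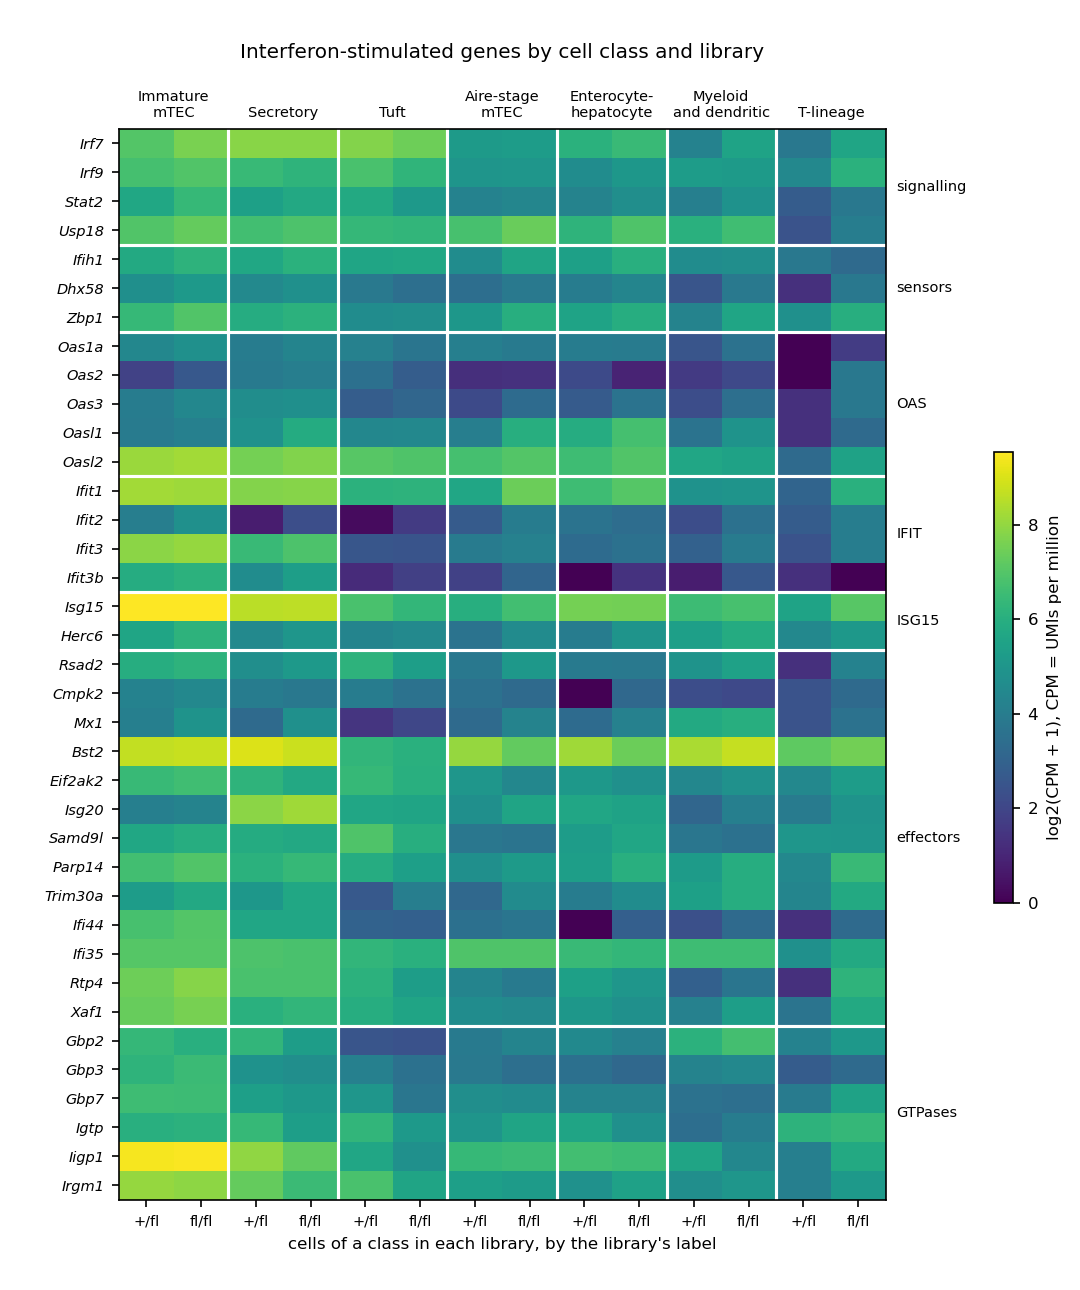
Level of each measured member as log2(CPM + 1) in 7 cell classes, 1 column per library, with genes in rows grouped by role. The immature mTEC columns are the brightest for most genes, with exceptions such as Isg20 in secretory-like cells and, in the +/fl-labelled library, Samd9l in tuft-like cells.

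The step from immature to Aire-stage mTECs was steeper for the interferon-gamma members. Immature mTECs exceeded Aire-stage mTECs 3.27-fold (95% interval 3.22 to 3.32) and 2.92-fold (2.88 to 2.95) for the type I sum, and 5.98-fold (5.79 to 6.18) and 5.63-fold (5.48 to 5.78) for the interferon-gamma sum. All 6 interferon-gamma members were higher in immature mTECs in both libraries. Among the type I members 29 of 31 and 28 of 31 were higher there, and the share of all genes was not computed. The exceptions included Isg20, a 3' to 5' exonuclease, at 16.6 and 18.1 CPM in immature against 26.4 and 46.3 CPM in Aire-stage mTECs. Over 31 cluster-by-library points of at least 50 cells, the mean log2 levels of the 2 lists correlated with Pearson's r = 0.835. These points share 2 libraries and their depth, so this r is a description without a test.

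Isg15, the ubiquitin-like modifier conjugated to proteins during the antiviral response, was one of the members with the steepest contrast. It had 740.9 and 748.3 CPM in immature mTECs, 61.9 and 99.7 CPM in Aire-stage mTECs, 110 and 79.7 CPM in tuft-like cells, and 91.8 and 110 CPM in myeloid and dendritic cells. Its level in immature mTECs was 12-fold (11.3 to 12.7) and 7.51-fold (7.22 to 7.81) that of Aire-stage mTECs. Herc6, the mouse ligase that attaches Isg15, had 48.1 and 70.9 CPM in immature and 11.4 and 23.3 CPM in Aire-stage mTECs. Usp18, the protease that removes Isg15 and dampens the type I receptor, was spread far more evenly over these classes, but not over T-lineage cells, with 4.435 and 15.43 CPM. It had 122 and 154 CPM in immature mTECs, 108 and 165 CPM in Aire-stage mTECs, 81.8 and 77.2 CPM in tuft-like cells, and 65.9 and 97.7 CPM in myeloid and dendritic cells.

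The IFIT genes, which lie together on chromosome 19 and encode proteins that bind viral RNA, were each highest in immature mTECs. Ifit3 had 235 and 261 CPM in immature mTECs, 87.2 and 117 CPM in secretory-like mTECs, 14.7 and 17.5 CPM in Aire-stage mTECs, 4.92 and 4.51 CPM in tuft-like cells, and 6.77 and 14.6 CPM in myeloid and dendritic cells. Its tuft level was 2.09% and 1.73% of that in immature mTECs. Ccl21a, a transcript that tuft-like cells should lack, stood at 1.52% and 1.55% in the same comparison, which is close to the value for Ifit3. Free RNA was not measured, and its part was not tested. Ifit1 had 299 and 282 CPM in immature mTECs, 219 and 222 CPM in secretory-like mTECs, 49.2 and 168 CPM in Aire-stage mTECs, 68.9 and 71.0 CPM in tuft-like cells, and 28.5 and 29.6 CPM in myeloid and dendritic cells. Ifit1 was therefore spread over more classes than Ifit3. Ifit3b, a near-identical copy of Ifit3, had 59.9 and 69.3 CPM in immature mTECs, and reads shared between the copies may be split or lost. Ifit2 was low throughout, with its highest class level at 15.8 and 26.6 CPM in immature mTECs.

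Among the OAS genes, a family on chromosome 5 that senses double-stranded RNA, Oasl2 was the one with the most UMIs. It had 275 and 301 CPM in immature mTECs, 104 and 125 CPM in Aire-stage mTECs, 133 and 121 CPM in tuft-like cells, and 48.8 and 44.6 CPM in myeloid and dendritic cells. Oasl1, its neighbour, went another way, with 14.6 and 16.9 CPM in immature mTECs and 58.8 and 104 CPM in enterocyte-hepatocyte-like cells. Oas1a, Oas2 and Oas3 stayed at or below 26.6 CPM in all 7 classes. The family's paralogs are similar in sequence, so counts between its members are uncertain. The RNA and DNA sensors Ifih1, Dhx58 and Zbp1 were each highest in immature mTECs, at 54.8 and 71.9, 26.2 and 34.2, and 83.9 and 125 CPM.

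Of the 7 classes, the signalling genes were highest in immature, secretory-like and tuft-like cells, where the 4 on the list summed to 404.8 and 557.9, 461.4 and 471.7, and 464.8 and 357.6 CPM. Irf7, the regulator that amplifies interferon production, had 126 and 198 CPM in immature mTECs, 233 and 229.8 CPM in secretory-like mTECs, 35.9 and 37.6 CPM in Aire-stage mTECs, 216 and 172 CPM in tuft-like cells, and 17.8 and 45.1 CPM in myeloid and dendritic cells. Irf9 had 106 and 122 CPM in immature mTECs, 30.3 and 31.2 CPM in Aire-stage mTECs, 112 and 74.2 CPM in tuft-like cells, and 37.6 and 35.7 CPM in myeloid and dendritic cells. Stat2 was likewise above its Aire-stage level in both, at 51.1 and 84.1 CPM in immature and 55.2 and 34.1 CPM in tuft-like cells against 17.8 and 19.7 CPM. Stat2, Irf9 and Irf7 were thus lower in Aire-stage mTECs than in any of these 3 classes.

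Bst2 (tetherin), which holds budding virions at the cell surface, was high in several classes. It had 532 and 438 CPM in secretory-like mTECs, 410 and 429 CPM in immature mTECs, 265 and 153 CPM in Aire-stage mTECs, 76.6 and 65.7 CPM in tuft-like cells, and 321 and 414 CPM in myeloid and dendritic cells. T-lineage cells had 145 and 183 CPM. Rtp4, a chaperone of receptors that also binds viral RNA, had 174 and 224 CPM in immature mTECs, 110.5 and 112 CPM in secretory-like mTECs, 19.0 and 14.4 CPM in Aire-stage mTECs, 68.9 and 38.9 CPM in tuft-like cells, and 6.54 and 12.2 CPM in myeloid and dendritic cells. Ifi35 differed little between immature (130 and 129 CPM) and Aire-stage mTECs (121 and 120 CPM). It was lower in tuft-like (77.5 and 66.0 CPM), myeloid and dendritic (95.1 and 95.4 CPM) and T-lineage cells (26.61 and 55.12 CPM). The effectors thus differed in pattern among themselves. Xaf1, Ifi44, Parp14, Eif2ak2 (the kinase PKR) and Cmpk2 followed Rtp4 in being highest in immature mTECs. Mx1, a GTPase that blocks influenza, was highest in myeloid and dendritic cells at 55.1 and 62.5 CPM, against 1.76 and 3.11 CPM in tuft-like cells.

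All 6 GTPase genes of the interferon-gamma group act on vacuoles that hold pathogens, and Gbp2, Gbp3 and Gbp7 lie next to each other on chromosome 3. Iigp1 had 675 and 715 CPM in immature mTECs, 84.3 and 90.3 CPM in Aire-stage mTECs, 49.6 and 26.5 CPM in tuft-like cells, and 46.9 and 20.7 CPM in myeloid and dendritic cells. Irgm1, a regulator of the other IRG proteins, had 264 and 243 CPM, 41.2 and 36.6 CPM, 110 and 47.3 CPM, and 25.5 and 31.01 CPM in the same order of classes. Gbp3 and Gbp7 had 72.6 and 89.5 CPM and 96.0 and 92.1 CPM in immature mTECs, and their Aire-stage levels were 13.7 and 10.1 CPM and 25.2 and 23.5 CPM. In tuft-like cells these 2 genes had 17.0 and 10.9 CPM and 31.4 and 12.6 CPM, and in myeloid and dendritic cells 18.5 and 21.2 CPM and 11.2 and 10.3 CPM. Gbp2 was shared between immature mTECs (81.9 and 63.7 CPM) and myeloid and dendritic cells (69.4 and 102 CPM), and was far lower in Aire-stage mTECs (14.5 and 18.6 CPM) and tuft-like cells (4.66 and 4.36 CPM). Igtp had 64.5 and 69.5 CPM in immature mTECs, 30.8 and 46.9 CPM in Aire-stage mTECs, 76.1 and 33.6 CPM in tuft-like cells, and 9.81 and 15.04 CPM in myeloid and dendritic cells. T-lineage cells, of which there were 75 and 108, had 71.0 and 81.6 CPM of Igtp and only 16.3 and 55.1 CPM of Iigp1. Gbp genes are also close paralogs of each other, so a share of their UMIs may be misassigned.

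Within immature mTECs the level was not uniform. Both clusters of the class had Tagln, Gas1, Myl9 and Ccl21a among their leading genes. Cluster 0 (678 and 1114 cells), which also had Mgp and Acta2 among them, had a type I sum of 4698 and 4763 CPM. Cluster 1 (413 and 488 cells), which had Krt5 and Cxcl12 among them, had 2128 and 2903 CPM. The difference was 2.21-fold (2.16 to 2.26) and 1.64-fold (1.60 to 1.68), and the interferon-gamma sum differed 1.76-fold (1.70 to 1.82) and 1.61-fold (1.54 to 1.67). A further cluster kept an epithelial Epcam level (915 and 670 CPM) beside matrix genes such as Col3a1, and was left unnamed. It had 146 cells in the +/fl-labelled library, with 4743 CPM of type I and 2405 CPM of interferon-gamma members there. Its interferon-gamma sum was 1.58-fold (1.53 to 1.64) that of cluster 0, while its type I sum was 1.01-fold (0.985 to 1.03). Only 15 cells of that cluster came from the fl/fl-labelled library.

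**Figure D2:**
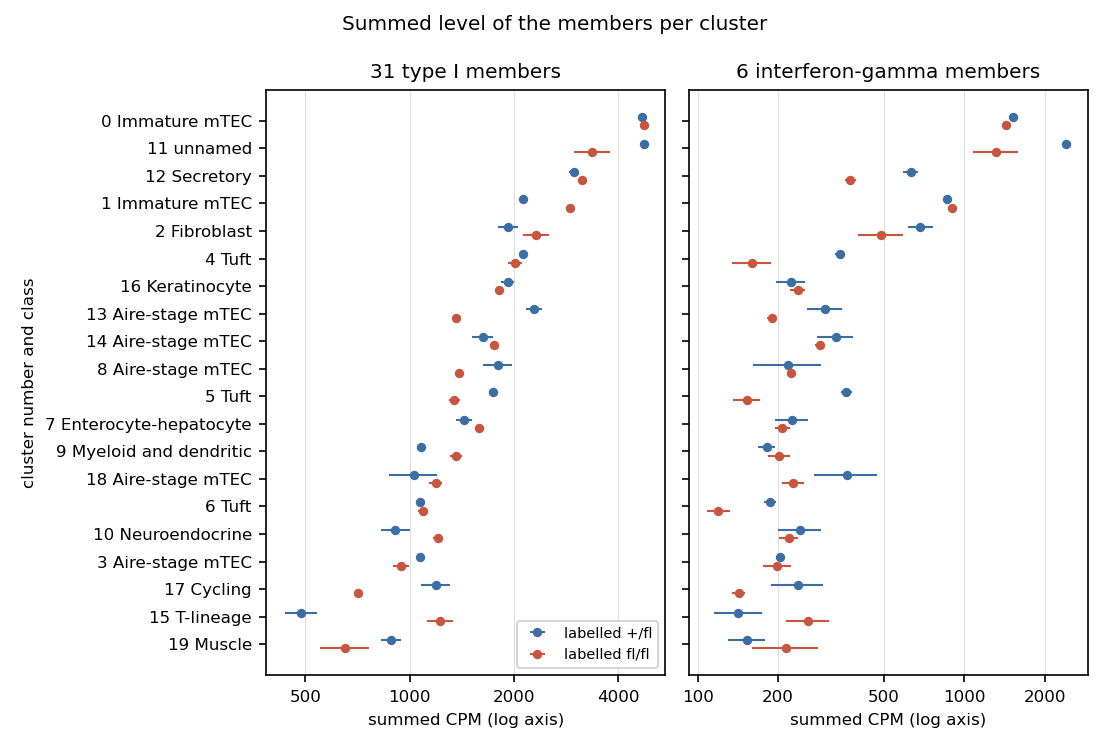
Summed CPM of the 31 type I members (left) and the 6 interferon-gamma members (right) in each cluster with at least 15 cells in both libraries, on log axes, with points for the 2 libraries and bars for 95% counting intervals. Cluster 0 of immature mTECs and the unnamed cluster 11 are furthest to the right in both panels.

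Single cells were compared after each was thinned to 2000 UMIs, which left out 324 and 797 shallower cells. In immature mTECs the median cell then held 6 and 7 type I UMIs, and 32.1% and 36.7% of cells held at least 10. In Aire-stage mTECs the median was 2 in both libraries, and 2.5% and 2.84% of cells held at least 10. Tuft-like cells had medians of 3 and 2, with 5.29% and 3.91% at 10 or more. The distributions overlapped, since the 25th percentile of immature mTECs was 3 and 4 UMIs and the 75th percentile of Aire-stage mTECs was also 3 and 4. Cells with 30 or more type I UMIs were rare, at 19 of 4567 and 29 of 6872, and 14 and 12 of these lay in immature cluster 0. Aire-stage cluster 8 held 4 of them in the fl/fl-labelled library, and the highest Aire-stage cell there had 61 type I UMIs.

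**Figure D3:**
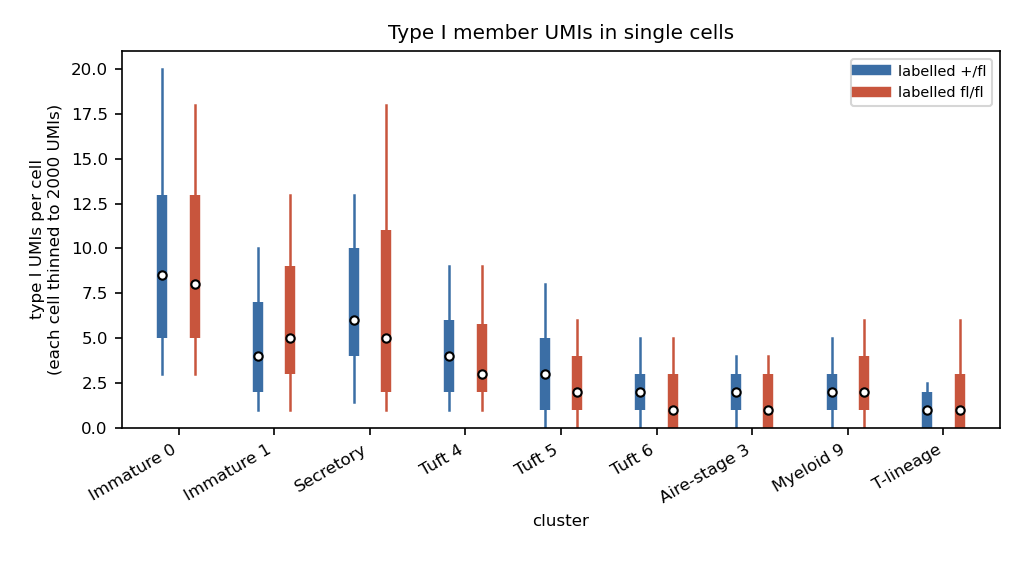
Type I member UMIs per cell after thinning to 2000 UMIs, for 9 clusters and both libraries. Circles are medians, thick bars run from the 25th to the 75th percentile and thin lines from the 10th to the 90th. Immature cluster 0 is highest, with medians of 8.5 and 8.

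Tuft-like cells fell into 3 clusters. Cluster 4 (610 and 115 cells) was led by genes of the immune-like tuft subtype such as Nrgn, and cluster 6 (499 and 338 cells) by Gnat3, a taste transduction gene, with Rgs21 and Il25. Cluster 5 (707 and 352 cells), the shallowest, also came closest to the immune-like list but had Gnat3 among its leading genes. The immune-like cluster had 2123 and 2018 CPM of type I members against 1069 and 1094 CPM in the Gnat3-led cluster, a difference of 1.98-fold (1.93 to 2.04) and 1.85-fold (1.74 to 1.95). It held the higher level for 28 of 28 and 22 of 23 type I members with at least 50 UMIs over the clusters compared. The share of all genes higher in the immune-like cluster was not computed. Irf7 had 280 and 309 CPM in the immune-like and 124 and 127 CPM in the Gnat3-led cluster. Samd9l, a restriction factor that acts on translation, had 167 and 140 CPM against 62.7 and 43.1 CPM. Ifih1 did not share this pattern, at 46.9 and 49.0 against 46.4 and 47.9 CPM. The interferon-gamma sum differed 1.83-fold (1.71 to 1.96) and 1.33-fold (1.09 to 1.62) between the same clusters.

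In leukocytes most members were lower than in immature mTECs. Myeloid and dendritic cells, led by Ccr7 and carrying Epcam at 385 and 211 CPM, had type I medians of 2 UMIs per thinned cell in both libraries. T-lineage cells had type I sums of 486 and 1226 CPM, the lowest of the 7 classes in the +/fl-labelled library. Their medians were both 1 UMI per cell, and in the fl/fl-labelled library the highest cell held 40. Ccl21a was at 579 and 319 CPM in myeloid and dendritic and 157 and 148 CPM in T-lineage cells, with median depths of 9702 and 6169 and of 4107 and 3169 UMIs, so this transcript of immature mTECs was present in leukocyte barcodes. Iigp1 in myeloid and dendritic cells was 6.95% and 2.89% of its immature mTEC level, beside 3.91% and 2.18% for Ccl21a. Gbp2 there was 84.7% and 159% of the immature level, well apart from Ccl21a.

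Between the libraries, over all kept cells, the type I sum was 1887 and 1836 CPM, a ratio of labelled fl/fl to labelled +/fl of 0.973 (0.965 to 0.98). The interferon-gamma sum was 492.7 and 361.1 CPM, 1.36-fold lower in the fl/fl-labelled library (ratio 0.733, 0.721 to 0.745). All 37 members had at least 50 UMIs over both libraries. Of the 31 type I members 6 were over 1.5-fold higher in the fl/fl-labelled library, where 20.0% of 18392 genes were, and 2 were over 1.5-fold lower, where 6.92% were. Of the 6 interferon-gamma members 1 (Irgm1) was over 1.5-fold lower and all 6 were lower. These figures mix classes whose shares differ, since immature mTECs, the class of highest level, were 22.3% and 20.9% of kept cells and tuft-like cells 37.1% and 10.5%. Each class was therefore compared by itself.

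**Figure D4:**
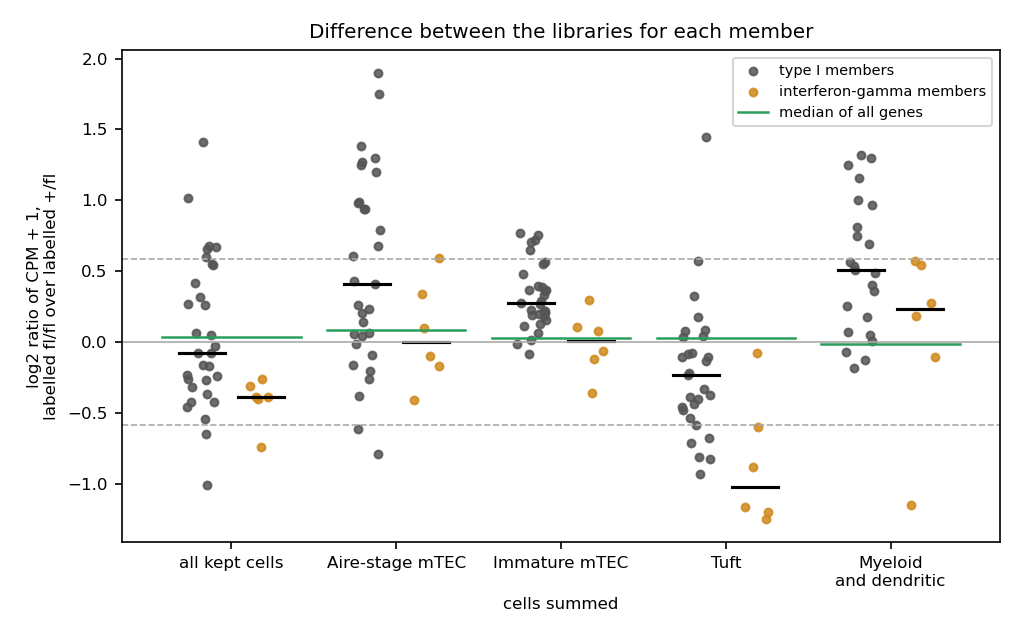
Log2 ratio of CPM + 1 (labelled fl/fl over labelled +/fl) of each member with at least 50 UMIs, over all kept cells and in 4 classes. Points are genes, black bars their medians, green lines the median of all genes tested and dashed lines 1.5-fold. The interferon-gamma members sit lowest in tuft-like cells.

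In tuft-like cells the interferon-gamma members were lower in the fl/fl-labelled library, at 135.2 against 288.6 CPM, 2.13-fold less (ratio 0.468, 0.436 to 0.503). All 6 were lower and 5 of the 6 were over 1.5-fold lower, against 6.92% of the 12230 genes with at least 50 UMIs there. Their median log2 ratio was -1.02, beside 0.03 for all genes. The direction was shared by some other cells. The ratio was 0.594 (0.547 to 0.645) in secretory-like mTECs, where all 6 were lower and 4 over 1.5-fold. Of 9761 genes there, 5485 were lower and 1092 over 1.5-fold lower. Ratios were 0.601 (0.48 to 0.763) in cycling cells, of which 25 carried the +/fl label. In Aire-stage cluster 13, with 54 cells of that label, the ratio was 0.633 (0.542 to 0.743). T-lineage cells went the other way, with a ratio of 1.82 (1.38 to 2.41) from 96 and 117 UMIs. Whether tuft-like cells differed from these was not tested. In tuft-like cells Igtp had 76.1 and 33.6 CPM, 2.26-fold less (1.96 to 2.62). Irgm1 had 110 and 47.3 CPM, 2.32-fold less (2.06 to 2.63), and Gbp7 31.4 and 12.6 CPM, 2.49-fold less. Iigp1 (49.6 and 26.5 CPM) and Gbp3 (17.0 and 10.9 CPM) were 1.87-fold and 1.56-fold lower, and Gbp2, with 90 and 28 UMIs, differed by less than counting error.

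The difference was found in each tuft cluster. The interferon-gamma sum was 341.1 and 159.6 CPM in the immune-like cluster (ratio 0.468, 0.392 to 0.555), 360.9 and 152.4 CPM in the shallow cluster (0.422, 0.373 to 0.477) and 186.4 and 119.5 CPM in the Gnat3-led cluster (0.641, 0.574 to 0.716). Igtp had 97.8 and 30.8, 80.3 and 41.0, and 51.2 and 30.2 CPM in these clusters, with intervals that did not overlap between the libraries in any of them. Irgm1 had 152 and 69.5, 120 and 43.0, and 60.4 and 44.3 CPM. Gbp3 differed beyond counting error in the shallow cluster only. Ccl21a was at 225 and 227 CPM in tuft-like cells, that is, alike in the 2 libraries, while Krt5 was at 63.5 and 37.7 CPM. The summed immature mTEC markers there were 503.8 and 438.6 CPM, with none of the 7 at 0. Their part in the difference was not tested.

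**Figure D5:**
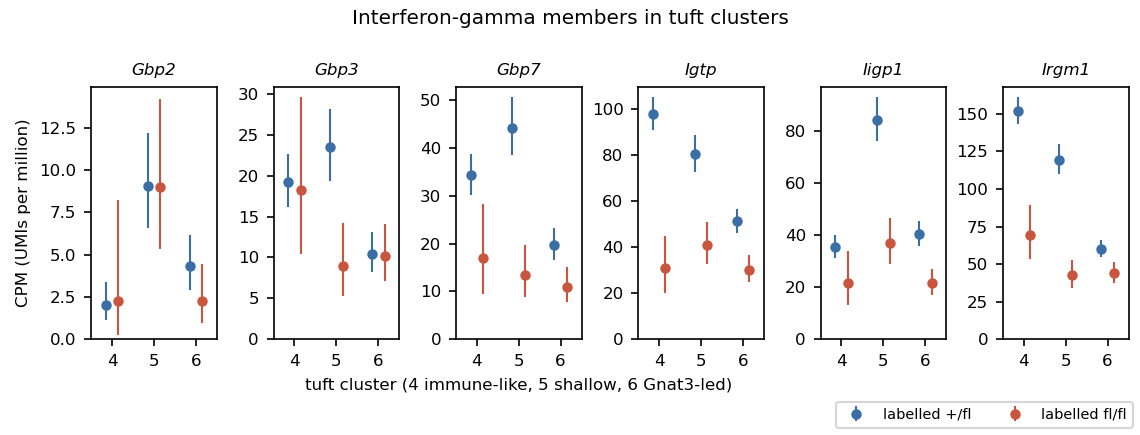
CPM of the 6 interferon-gamma members in the 3 tuft-like clusters, with 95% counting intervals, for the libraries labelled +/fl and fl/fl. Igtp and Irgm1 are lower in the fl/fl-labelled library in all 3 clusters, while Gbp2 is low in both libraries.

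Other interferon-gamma targets in tuft-like cells did not share 1 direction. Of 18 further genes on a fixed list, 17 had at least 50 UMIs, 4 were over 1.5-fold higher and 3 over 1.5-fold lower in the fl/fl-labelled library, with a median log2 ratio of 0.04. Over all genes there 9.47% were higher and 6.92% lower by that much. The 3 lower ones were also immunity-related GTPases, Irgm2 (27.2 and 11.5 CPM), Tgtp1 (10.1 and 3.58 CPM) and Tgtp2 (27.9 and 9.34 CPM), of which the last pair are near-identical. The higher ones included the immunoproteasome genes Psmb8 (131.2 and 210.5 CPM) and Psmb9 (87.3 and 138 CPM). Irf1, the factor through which interferon-gamma induces many genes, had 238 and 144 CPM, and Socs3, a feedback inhibitor, 196 and 75.3 CPM. The receptor genes Ifngr1 (10.04 and 11.5 CPM) and Ifngr2 (73.5 and 69.9 CPM) differed far less.

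Type I members in tuft-like cells were lower on balance. Their median log2 ratio was -0.23, while the median of all genes in these cells, given above, was slightly positive. For differences of any size, shares of all genes are given below by cluster. Of 29 members with at least 50 UMIs, 21 were lower in the fl/fl-labelled library, and 5 of these over 1.5-fold, where 6.92% of genes were. The 5 were Samd9l (120 and 62.4 CPM), Rsad2 (71.6 and 40.0 CPM), Rtp4 (68.9 and 38.9 CPM), Oas2 (10.6 and 6.07 CPM) and Stat2 (55.2 and 34.1 CPM). Only Trim30a, a TRIM-family regulator of NF-kB signalling, was over 1.5-fold higher, at 5.28 and 16.2 CPM, where 9.47% of genes were. The type I sum was 1636 and 1299 CPM, 1.26-fold less. By cluster it was 1740 and 1348 CPM in the shallow cluster, while the immune-like cluster had 2123 and 2018 CPM and the Gnat3-led cluster 1069 and 1094 CPM. In that order, 9 of 28, 13 of 27 and 12 of 24 type I members were higher in the fl/fl-labelled library. Of all genes 52.8%, 46.4% and 51.2% were. The shares of these clusters among tuft-like cells differed between the libraries, with 610 of 1816 cells in the immune-like cluster against 115 of 805.

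Immature mTECs showed the reverse for the type I members. In the fl/fl-labelled library 29 of 31 were higher, where 54.2% of all genes were, and the median log2 ratio was 0.28 beside 0.03 for all genes. Past 1.5-fold there were 5 higher, against 4.32% of 12218 genes, and none lower, against 4.08%. The 5 were Ifit2 (15.8 and 26.6 CPM), Irf7 (126 and 198 CPM), Stat2 (51.1 and 84.1 CPM), Oas2 (2.71 and 5.26 CPM) and Mx1 (16.6 and 29.0 CPM). Zbp1 (83.9 and 125 CPM) and Herc6 (48.1 and 70.9 CPM) lay just below that line. The most abundant members hardly differed, with Isg15 at 741 and 748 CPM and Ifit1 at 299 and 282 CPM, so the type I sum was 1.14-fold higher (1.13 to 1.16). With the libraries clustered apart its log2 ratio turned from 0.19 to -0.12. The interferon-gamma sum differed 1.01-fold (0.991 to 1.04), with 3 members higher and 3 lower. The rise of the type I sum lay in cluster 1, at 1.36-fold (1.33 to 1.40), while in cluster 0 the sum was 1.01-fold (0.999 to 1.03). By members, 29 of 30 were higher in cluster 1, where 54.2% of all genes were. In cluster 0, 22 of 31 were higher, where 57% of all genes were. The median log2 ratio there was 0.208 beside 0.042 for all genes.

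Aire-stage mTECs had a type I sum of 1121 and 1437 CPM, 1.28-fold higher in the fl/fl-labelled library (1.26 to 1.30). Of 31 members 14 were over 1.5-fold higher, where 25.7% of 16814 genes were, and 2, Bst2 (265 and 153 CPM) and Eif2ak2 (31.6 and 20.3 CPM), over 1.5-fold lower, where 10.6% were. The members furthest up were Oasl1 (15.8 and 61.8 CPM), Ifit1 (49.2 and 168 CPM), Ifit3b (2.63 and 7.63 CPM), Trim30a (8.46 and 23.6 CPM), Oas3 (3.43 and 9.19 CPM), Ifit2 (5.66 and 15.1 CPM) and Rsad2 (13.0 and 33.4 CPM). Smaller differences past that line were seen for Mx1, Herc6, Ifih1, Zbp1, Isg20, Isg15 and Usp18. The 2 libraries, however, filled the class with different cells. Cluster 3, which had Gpx6 among its leading genes, contributed 905 of the 1077 +/fl-labelled and 93 of the 3058 fl/fl-labelled cells, and the other 4 clusters the reverse. Within cluster 3 the type I sum was 0.881-fold (0.833 to 0.932), at 1071 and 943.5 CPM. Without cluster 3 the log2 ratio of the class turned from 0.36 to -0.34, with 172 cells labelled +/fl left. In the kallikrein-expressing cluster 13 (54 and 889 cells) the sum was 2285 and 1363 CPM. In cluster 14 (57 and 803 cells), which expresses Il13 and Ccl22, it was 1626 and 1755 CPM. Their +/fl-labelled cells were few and shallow, with median depths of 4463 and 11679 UMIs in cluster 13 and 3410 and 8996 UMIs in cluster 14. Over the class the interferon-gamma sum differed 1.08-fold (1.04 to 1.12), with Igtp (30.8 and 46.9 CPM) as the member past 1.5-fold.

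Myeloid and dendritic cells had type I sums of 1080 and 1472 CPM. Of 23 type I members with at least 50 UMIs 20 were higher in the fl/fl-labelled library, 9 of them over 1.5-fold, where 5.05% of 8460 genes were. For differences of any size, the share of all genes is given for cluster 9. In that cluster, with 349 and 271 of these cells, 17 of 21 were higher, where 47.8% of all genes were. Only 6 of the 21 were over 1.5-fold higher there, as were 392 of 8374 genes. Over the whole class Irf7 (17.8 and 45.1 CPM), Zbp1 (18.5 and 47.5 CPM), Oasl1 (11.4 and 28.7 CPM) and Xaf1 (17.3 and 39.9 CPM) differed most. Iigp1 was the member over 1.5-fold lower (46.9 and 20.7 CPM), where 9.80% of genes were. Ccl21a (579 and 319 CPM) and Epcam (385 and 211 CPM) were lower there too, and the 7 immature mTEC markers summed to 1161 and 536.6 CPM with none at 0. Their part in the difference was not tested. The class also held a macrophage-like cluster of 10 and 25 cells, with type I sums of 1085 and 4290 CPM from 25 and 346 UMIs. Over the whole class the summed macrophage markers were 201.6 and 1398 CPM, with none of the 6 at 0. The B-lineage markers summed to 54.42 and 379.2 CPM, so the make-up of the class differed between the libraries. Without the macrophage-like cluster, in cluster 9, the type I sum was 1080 and 1361 CPM.

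Interferon transcripts themselves were scarce. Ifnb1 had 5 and 87 UMIs over all kept cells, Ifnl2 3 and 78, Ifnl3 2 and 49, and Ifng 22 and 134. The Ifna genes on the list had at most 6 UMIs each in either library, and most had 0. The Ifnb1 molecules came from few cells, 21 in the fl/fl-labelled library, of which 10 lay in Aire-stage cluster 8 and held 71 UMIs. A single cell held 34 of them. Those 10 cells had 4721 CPM of type I members against 1338 CPM in the rest of cluster 8. Cells of cluster 8 with Ifnl2 (11 cells) did not share this, at 924 against 1395 CPM, whereas the 15 cells of cluster 14 with Ifnl2 had 3380 against 1711 CPM. Ifng came from 36 cells labelled fl/fl, with 57 of its 134 UMIs in 1 cell of cluster 8 and 36 in cluster 14. Few cells decide each of these values, and they belong to 1 library.

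Of the 15 genes on a list of receptors, kinases and regulators of the pathway none was over 1.5-fold higher or lower between the libraries in immature mTECs, where 4.32% and 4.08% of all genes were, and 2, Socs3 and Irf1, were lower in tuft-like cells, where 6.92% were. Counts this small among 15 genes were not tested against those shares. Ifnar1 had 23.9 and 29.6 CPM in immature mTECs, 24.3 and 29.0 CPM in Aire-stage mTECs and 30.1 and 25.8 CPM in tuft-like cells. Ifnar2 had 56.6 and 60.1 CPM, 40.2 and 35.2 CPM, and 51.4 and 45.3 CPM in the same classes. The levels of the type I receptor thus differed between these classes far less than those of Isg15. Ifngr1 was lowest in tuft-like cells, at 10.04 and 11.5 CPM against 78.9 and 91.7 CPM in immature mTECs. Ifnlr1, the subunit particular to the interferon-lambda receptor, was at 7.401 and 9.51 CPM in immature mTECs.

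The genes whose pattern was most like that of the members were sought among 7278 genes over the same 31 cluster-by-library points, which share libraries and depth. For the mean of the type I members these were Rnf213 (r = 0.924), Phf11d, Parp9, Casp12, Ddx60, Atf3, Ifi27l2a, Emp2, Lox and Jun (r = 0.818). Of these 10, Parp9, Ddx60 and Ifi27l2a were on the fixed list of other type I targets. For the interferon-gamma members they were Lox (r = 0.915), Sntb2, Osmr, Emp1, Rgma, Antxr1, Cyr61, Junb, Gas1 and Ifi202b (r = 0.870). Among the members, Isg15 followed the mean of the other type I members most closely (r = 0.897), and Isg20 (r = 0.247) and Oasl1 (r = 0.277) least.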

How the data were processed

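Droplet libraries were prepared with a 10x Genomics 3' kit, per the labels' protocols. The authors deposited raw UMI counts for each gene and cell barcode; Cell Ranger and Seurat are listed in the submitters' processing notes. The matrix headers carry the software string 3.1.0. The authors' genome build is not given in the sources used here. Gene positions are from GENCODE M21 (GRCm38). The deposited gene and barcode tables gave names only.

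Cells with at least 500 genes, 1000 UMIs and at most 15% mitochondrial UMIs were kept. Scrublet (scanpy 1.11.5) marked 1 and 0 cells by its automatic threshold and so did not work as a caller. The highest-scoring 208 and 539 cells (0.8% per 1000 cells) were removed instead. Clustering left out the members and the lists of other type I and interferon-gamma targets. It used 2000 variable genes, 30 components, 15 neighbours and Leiden resolution 1 (igraph 0.11.9), and gave 21 clusters, named from 26 marker lists by criteria settled once the clusters were known. Members and lists were chosen with earlier results of these data known. UMIs were summed per class and library and scaled to CPM with exact Poisson intervals. Ratios carry exact conditional binomial intervals. Log2 ratios add 1 CPM to both libraries, and genes needed 50 UMIs over both. The log2 ratio step for single genes was tested on simulated counts, and the ratios of summed lists were not. By the rule for named genes, full values are given for the 10 type I members of highest CPM, the 6 interferon-gamma members and those past 1.5-fold. Alternatives included edgeR 4.0.16 scaling (TMM) under R 4.3.3.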

Additional observations from a re-analysis of the deposited data

Results flagged for a closer look

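The difference between the libraries in the type I sum ran in opposite directions in different classes, each with a counting interval that left out no difference. The log2 ratio of labelled fl/fl over labelled +/fl was 0.36 in Aire-stage mTECs, 0.19 in immature mTECs and 0.45 in myeloid and dendritic cells, and -0.33 in tuft-like cells. The Aire-stage value turned to -0.34 without its Gpx6-expressing cluster and to -0.27 with clusters weighted equally. That class holds mostly different clusters in each library. The immature value turned to -0.12 with the libraries clustered apart. For the interferon-gamma sum it was 0.11 in Aire-stage mTECs and -1.09 in tuft-like cells, and the first turned to -0.42 and -0.30 under the same settings.

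Among single members past 1.5-fold in both directions, Stat2 had log2 ratios of 0.71 in immature mTECs, 0.75 in myeloid and dendritic cells and -0.68 in tuft-like cells. Oas2 had 0.76 in immature mTECs and -0.71 in tuft-like cells. Rsad2 had 1.30 in Aire-stage mTECs and -0.82 in tuft-like cells. Rtp4 had 0.81 in myeloid and dendritic cells and -0.81 in tuft-like cells. Igtp had 0.59 in Aire-stage mTECs and -1.16 in tuft-like cells. With 1 library per genotype, none of these differences between classes was tested.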

How the results depend on the processing

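The 8 summed log2 ratios (labelled fl/fl over labelled +/fl) were recomputed under 5 to 10 alternative settings each. Of the 68 values this gave, 29 stayed within the counting interval. With TMM scaling, which moved all genes by -0.10 over all cells, -0.14 in Aire-stage mTECs, -0.04 in immature mTECs and -0.09 in tuft-like cells, type I gave -0.14, 0.22, 0.16 and -0.43 in that order, and interferon-gamma -0.55, -0.03 and -0.02 in the first 3. With the mean CPM of single cells, type I gave -0.02, 0.22, 0.11 and -0.24, and interferon-gamma -0.34 over all cells and -0.02 in immature mTECs. With classes weighted equally, all cells gave 0.17 for type I and -0.21 for interferon-gamma. Without doublet removal, type I gave 0.41 in Aire-stage, 0.14 in immature and -0.44 in tuft-like cells, and interferon-gamma 0.19, -0.05 and -0.92. With members kept in the clustering, type I gave 0.33 in Aire-stage and 0.15 in immature mTECs. Resolution 0.5 gave 0.23 and 0.11 for type I and 0.02 and -0.15 for interferon-gamma in those classes, and resolution 2 gave 0.17 for type I in immature mTECs. A stricter cell filter gave 0.17 for type I in immature mTECs and -0.99 for interferon-gamma in tuft-like cells. Clustering the libraries apart gave -0.12 for type I in immature mTECs, -0.38 in tuft-like cells, and -0.25 for interferon-gamma in immature mTECs. The rest were chosen after seeing the data. Without the cluster that holds most +/fl-labelled Aire-stage cells, that class gave -0.34 for type I and -0.42 for interferon-gamma. With clusters weighted equally, type I gave -0.27 in Aire-stage, 0.23 in immature and -0.14 in tuft-like cells, and interferon-gamma -0.30 in Aire-stage mTECs. The interferon-gamma ratio in tuft-like cells stayed below 0 in all of its 10 alternatives, from -1.19 to -0.92. The cause of these shifts was not tested. No paired analysis was possible because each genotype has 1 library.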
